A study of Mus musculus with 8 samples.

Results

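The Tspan8posMHCIIlo and Tspan8negMHCIIlo subsets of medullary thymic epithelial cells (mTECs) were compared here by mRNA sequencing, gene by gene and across 72 lists of functionally related genes. The 4 libraries of these subsets, 2 of each, were chosen by their sample labels from the 8 libraries of the series. All cells came from thymi of wild-type mice (BL6N6, 4 to 6 weeks old), were sorted as CD45neg, Epcam-positive and CDR1neg cells and were then divided by the surface proteins Tspan8 and MHCII, so both subsets carry little surface MHCII and differ in the gate on Tspan8. Tspan8, a tetraspanin of gut and other mucosal epithelia, served as an example of a tissue-restricted antigen, and the comparison addresses which expression programs accompany it among MHCIIlo cells. The labels call the replicates biological but do not say which mice, or how many, went into each library.

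mTECs display proteins of peripheral tissues to developing T cells, so that self-reactive cells can be removed or diverted to a regulatory fate. The MHCIIlo gate holds cells at opposite ends of the mTEC life course. Immature and junctional mTECs produce the chemokine Ccl21a, attach to laminin-rich matrix, and give rise to dividing precursors and then to MHCIIhi, Aire-expressing cells. Late mTECs have lost most MHCII and Aire again, and take up programs of peripheral tissues. Among these are keratinocyte-like cornification and the tuft, microfold, secretory, muscle and neuroendocrine programs known as mimetic cell types.

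The libraries held 3456419 and 3928879 counts in Tspan8negMHCIIlo and 1941518 and 7783841 in Tspan8posMHCIIlo. With every library thinned to 1941518 counts, 18508 and 18797 genes had at least 1 count in the former and 18173 and 18545 in the latter. Tspan8 had 3.65 and 14.6 CPM (counts scaled to a common library size, adjusted by TMM, a scaling to the bulk of genes) in Tspan8negMHCIIlo and 347 and 366 CPM in Tspan8posMHCIIlo. Expression of the sorted marker thus followed the labels in every library. Epcam, the epithelial adhesion molecule used in the sort, had 518 and 367 against 1081 and 954 CPM, and Foxn1, the transcription factor that defines thymic epithelium, had 67.4 and 60.1 against 62.1 and 66.8 CPM, with overlapping levels. Here and throughout, the Tspan8negMHCIIlo values, replicate 1 and then replicate 2, stand before the word against, and the Tspan8posMHCIIlo values in the same order after it.

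Of 17006 genes with enough counts, 2052 (12.1%) were called higher and 1588 (9.34%) lower in Tspan8posMHCIIlo, in edgeR's quasi-likelihood test, where a call required an adjusted p-value under 0.01 together with a change of at least 1 on the log2 scale. All log2 fold changes are Tspan8posMHCIIlo relative to Tspan8negMHCIIlo. Every gene called in either direction had no overlap of CPM between the 2 subsets, so non-overlap adds nothing to a call. With the 177 higher and 108 lower genes whose other subset lay at or under 3 counts per library set to their bound, 471 genes rose by at least 3 on the log2 scale and 89 by at least 5, against 216 and 10 genes that fell by as much. Fitted changes, which for such genes depend on the prior count, gave 570 and 182 against 295 and 62. The median over all genes was -0.03. Without the TMM scaling the median moved to -0.197 and the split to 1726 genes higher and 2043 lower, so shifts of single genes near that size depend on the scaling. With 2 libraries a side, an exact permutation test of a single gene cannot go below p = 0.333, and the adjusted p-values rest on a spread estimated over all genes and all 8 libraries. The p-values measure the spread between these libraries only. Of 56 list counts of at least 5, 36 stayed within 1.5 times under all 9 alternatives applied to the lists, and the library or setting that moved a count most is named beside the others.

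**Figure D1:**
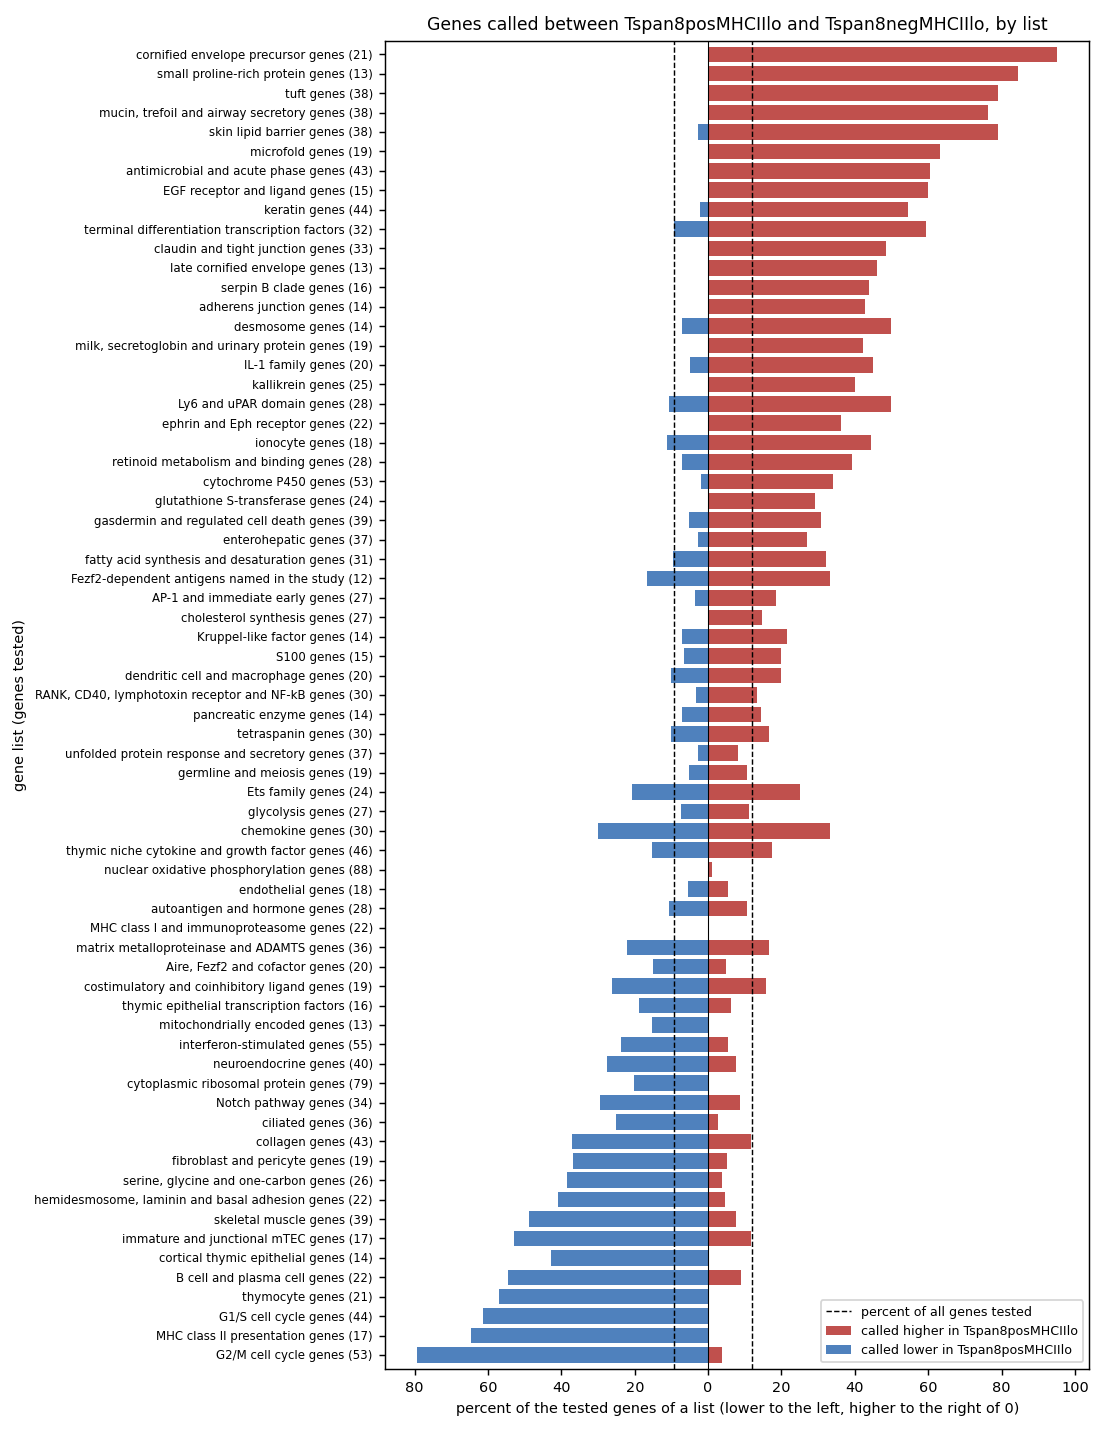
Percent of the tested genes of each list called higher (red, to the right) or lower (blue, to the left) in Tspan8posMHCIIlo than in Tspan8negMHCIIlo, for the lists with at least 12 tested genes, whose number stands in brackets. The dashed lines mark the 12.1% and 9.34% of all tested genes; cornified envelope precursor genes stand at 95.2% higher and G2/M cell cycle genes at 79.2% lower.

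The 12 protein-coding genes with the smallest p-values on the higher side came largely from the outer layers of skin. They were the keratins Krt79, Krt16, Krt80, Krt23 and Krt77, the kallikreins Klk7 and Klk13, the cornified envelope genes Flg, Cdsn, Sbsn and Kprp, and Ano9, which encodes an anoctamin membrane protein. Krt79 (ENSMUSG00000061397.7, chromosome 15 from 101929332 to 101940324 of GRCm38) had 5.06 and 8.25 CPM in Tspan8negMHCIIlo and 478 and 487 CPM in Tspan8posMHCIIlo, a change of 6.15 on the log2 scale (standard error 0.20, edgeR adjusted p = 5.44e-08). On the lower side the 12 genes were of mixed function. Those reported here were Cdhr1, a protocadherin of photoreceptors, Actn3, the alpha-actinin of fast muscle fibres, Phgdh, Ccnd2, BC034090, the nucleoside transporter Slc29a1, Ciita, Pnmal2, Wnt10b, H2-DMb2 and Lgals1. Cdhr1 had 298 and 228 CPM in Tspan8negMHCIIlo and 17.6 and 15.6 CPM in Tspan8posMHCIIlo, a log2 value of -4.01 with a standard error of 0.19 and an edgeR adjusted p of 1.39e-07.

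Genes of the cornified envelope, the cross-linked protein shell that terminally differentiated keratinocytes build beneath their membrane, were higher in Tspan8posMHCIIlo almost without exception. Of 21 tested precursor genes 20 were called higher and none lower, with a median log2 fold change of 5.10 (4.99 with genes near 0 counts at their lower bound). Together they held 0.0371% and 0.0521% of all counts in Tspan8negMHCIIlo and 0.886% and 0.972% in Tspan8posMHCIIlo. The member that was not called, Tchhl1, had 0.281 and 0.471 against 2.2 and 1.91 CPM. Flg (ENSMUSG00000102439.2, chromosome 3 from 93273523 to 93293686), whose product filaggrin bundles keratin filaments, had 7.3 and 8.49 against 458 and 610.2 CPM, which is 6.07 on the log2 scale (standard error 0.21, edgeR adjusted p = 5.44e-08). The scaffold gene Lor stood at 3.37 and 16.5 against 247 and 359 CPM, Cdsn, which encodes the adhesive corneodesmosin, at 4.21 and 7.78 against 359 and 341 CPM, and Cnfn at 5.34 and 4.95 against 366 and 281 CPM. As in every gene called higher, both Tspan8posMHCIIlo libraries lay above both Tspan8negMHCIIlo libraries in each of these genes. The small proline-rich proteins, which cross-bridge the envelope, were called higher in 11 of 13 tested genes. Sprr1a had 95.8 and 82.5 against 2168 and 1481 CPM with a log2 fold change of 4.35 (edgeR adjusted p = 1.72e-07). The late cornified envelope genes were at the edge of detection, with 9 of 13 at 3 counts or fewer in every library of 1 subset. Of these 13 genes 6 were called higher, but only 1 without replicate 2 of Tspan8posMHCIIlo, the deepest library. Lce1f, with 0 and 0.707 CPM in Tspan8negMHCIIlo and 38.5 and 26.8 CPM in Tspan8posMHCIIlo, was at least 42.1-fold higher relative to a floor of 3 counts per library. Counts of Sprr and Lce genes are uncertain in detail, because these are recent paralogs among which short reads can be split.

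Many of these genes lie side by side in the epidermal differentiation complex on chromosome 3. Between 90511034 and 93564643 (GRCm38), the span of the S100, Sprr and Lce lists, 58 protein-coding genes were tested, of which 36 were called higher and 1 lower, against 12.5% and 9.77% of all tested protein-coding genes. Those lists set its bounds. Of the 20 other tested coding genes inside, 16 were called higher. Among them were Flg, Flg2, Lor, Ivl, Rptn, Hrnr, Tchh and Crnn, counted above as envelope precursors. The span thus largely repeats the list counts, and it was not uniform. Among 15 S100 genes, calcium-binding proteins that mostly lie at the flank of the complex, 3 were called higher and 1 lower. S100a9 had 7.3 and 21 against 48.4 and 56.5 CPM, and S100a10, called lower, had 134 and 87.2 against 67.1 and 44.2 CPM. With library totals in place of TMM, 1 S100 gene was called higher.

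Many promoters of the envelope genes held the AP-1 motif TGANTCA, the core site of Fos and Jun factors. It was 1 of 7 motifs searched and is described here because of its share in these genes, so it was picked after the values were seen. RefSeq promoter windows (GRCm38.p6, 250 bases before to 50 after the start) were matched by symbol to 17 of the 21 tested envelope precursor genes, and 12 of these held the motif. It stood in 8 of 13 windows of Sprr genes and in 6 of 14 of serpin B genes, against 5.94% of the windows of 12003 tested genes. Those windows cover 77.9% of the tested coding genes, under the 80% set as a minimum, so a comparison with that share is void and it is given as a description. The 27 lists with windows for at least 80% of their genes are therefore not ranked against it. Other lists among them with the motif include hair keratin-associated genes (2 of 3), pancreatic enzyme genes (3 of 13) and glutathione S-transferase genes (4 of 22). It also stood in windows of IL-1 family genes (3 of 18), unfolded protein response and secretory genes (5 of 31) and ciliated genes (4 of 31). Further lists with it were RANK, CD40, lymphotoxin receptor and NF-kB genes (3 of 24) and Aire, Fezf2 and cofactor genes (2 of 17). Nuclear oxidative phosphorylation genes (7 of 71) and skin lipid barrier genes (3 of 32) held it too. The motif stood in 1 of 47 windows of G2/M cell cycle genes and in none in 7 lists, among them Lce genes (0 of 12) and kallikrein genes (0 of 25). In the serpin B clade, all 6 genes with the motif were called higher, as was 1 of the 8 without it. Among envelope precursor genes no such split was seen, with 11 of 12 called higher with the motif and 5 of 5 without it, and among Sprr genes 8 of 8 and 3 of 5 were called higher. Sprr and serpin B genes arose by duplication, so their promoters are not independent. Windows are shown for the called envelope precursor and Sprr genes with a match that had the smallest p-values, and for Lce1a1 as a window of the same complex without one. Letters run 5′ to 3′ along the gene's strand, with TGANTCA, which reads the same on both strands, in capitals.
Flg (chr3:93273296-93273595, plus strand): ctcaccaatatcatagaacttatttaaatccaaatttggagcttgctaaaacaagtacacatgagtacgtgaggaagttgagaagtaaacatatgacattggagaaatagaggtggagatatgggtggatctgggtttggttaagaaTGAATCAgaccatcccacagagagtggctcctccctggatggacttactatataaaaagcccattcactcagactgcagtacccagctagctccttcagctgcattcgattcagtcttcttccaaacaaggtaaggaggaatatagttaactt
Sbsn (chr7:30751221-30751520, plus strand): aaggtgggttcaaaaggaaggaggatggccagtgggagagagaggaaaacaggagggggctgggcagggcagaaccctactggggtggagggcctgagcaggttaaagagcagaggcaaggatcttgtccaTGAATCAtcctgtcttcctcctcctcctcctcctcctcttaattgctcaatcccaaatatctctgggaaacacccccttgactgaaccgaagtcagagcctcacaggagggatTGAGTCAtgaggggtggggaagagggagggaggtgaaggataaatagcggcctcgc
Dmkn (chr7:30763506-30763805, plus strand): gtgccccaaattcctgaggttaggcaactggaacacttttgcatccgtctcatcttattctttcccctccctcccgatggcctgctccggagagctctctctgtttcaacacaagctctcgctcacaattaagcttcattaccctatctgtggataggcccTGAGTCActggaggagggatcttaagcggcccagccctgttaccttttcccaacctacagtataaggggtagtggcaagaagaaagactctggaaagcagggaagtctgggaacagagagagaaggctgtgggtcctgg
Sprr1a (chr3:92485832-92486131, minus strand): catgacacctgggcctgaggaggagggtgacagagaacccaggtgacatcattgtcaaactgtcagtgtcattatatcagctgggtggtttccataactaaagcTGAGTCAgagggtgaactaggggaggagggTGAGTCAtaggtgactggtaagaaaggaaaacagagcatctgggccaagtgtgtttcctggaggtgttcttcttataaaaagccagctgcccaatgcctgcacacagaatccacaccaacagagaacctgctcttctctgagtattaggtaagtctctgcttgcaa
Sprr2d (chr3:92338890-92339189, plus strand): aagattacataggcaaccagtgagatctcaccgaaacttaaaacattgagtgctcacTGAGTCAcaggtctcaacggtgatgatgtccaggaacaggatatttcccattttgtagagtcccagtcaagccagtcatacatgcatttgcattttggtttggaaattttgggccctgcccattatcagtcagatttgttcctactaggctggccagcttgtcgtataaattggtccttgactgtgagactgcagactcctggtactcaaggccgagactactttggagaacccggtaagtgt
Lce1a1 (chr3:92648258-92648557, minus strand): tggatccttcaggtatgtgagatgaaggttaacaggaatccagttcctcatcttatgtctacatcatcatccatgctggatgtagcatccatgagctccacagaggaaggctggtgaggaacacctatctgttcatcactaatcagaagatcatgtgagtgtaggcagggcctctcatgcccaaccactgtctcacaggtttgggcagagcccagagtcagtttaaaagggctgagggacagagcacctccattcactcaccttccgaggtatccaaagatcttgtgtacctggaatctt
The first match begins at position -103 relative to the start in Flg, -119 in Sbsn, -89 in Dmkn, -146 in Sprr1a and -193 in Sprr2d. Dmkn and Sbsn, neighbours on chromosome 7 that encode secreted keratinocyte proteins, had 43.3 and 56.4 against 1747 and 1805 CPM and 28.6 and 41.5 against 1072 and 1170 CPM. Lce1a1 had 0 counts in both Tspan8negMHCIIlo libraries and 1.1 and 9.96 CPM in Tspan8posMHCIIlo. Of 27 AP-1 and immediate early genes 5 were called higher and 1 lower (18.5% and 3.70%, against 12.1% and 9.34% of all tested genes). Fos had 2673 and 2465 against 1975 and 2517 CPM, with overlapping levels, and Fosl1 92.1 and 54.5 against 166 and 95.3 CPM, without overlap but past neither threshold (0.80, edgeR adjusted p = 0.0648). Egr3, a zinc finger immediate early factor, rose from 65.7 and 76.2 to 288 and 332 CPM (log2 fold change 2.13, edgeR adjusted p = 3.56e-06), and Nr4a2, an orphan nuclear receptor, fell from 71.1 and 63.2 to 17.6 and 11.6 CPM (-2.30, edgeR adjusted p = 1.23e-05).

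Keratins, the intermediate filaments of epithelia, were mostly higher in Tspan8posMHCIIlo, with Krt14 as the only called decrease. Of 44 tested keratin genes 24 were called higher and 1 lower, with a median log2 fold change of 2.43, or 1.74 with the 11 genes near 0 counts in 1 subset at their bound. In the 2 keratin clusters, whose bounds the keratin genes themselves set, 11 of 22 tested coding genes were called higher between 99232761 and 100269871 on chromosome 11. Between 101347444 and 102032027 on chromosome 15 it was 15 of 26, against 12.5% of all tested coding genes. Only 3 and 1 of these genes lie outside the keratin list, with 2 and 0 called higher, so the spans largely repeat the keratin count. Krt16, a keratin of stressed and fast-renewing epidermis, had 37.1 and 51.2 CPM in Tspan8negMHCIIlo and 1708 and 1638 CPM in Tspan8posMHCIIlo (log2 fold change 5.24, standard error 0.18, edgeR adjusted p = 5.44e-08). The suprabasal Krt77 stood at 16.3 and 26.4 against 876 and 944 CPM. The simple-epithelium keratins Krt8 and Krt18 rose less, from 2115 and 1694 to 4233 and 3693 CPM and from 1396 and 999 to 2649 and 2451 CPM, with log2 fold changes of 1.06 and 1.09 that came under 1 without replicate 2 of Tspan8negMHCIIlo (0.90 and 0.87) or with library totals in place of TMM (0.89 and 0.93). Krt14, a basal type I keratin, was the called decrease, at 927 and 558 against 242 and 172 CPM (-1.85, edgeR adjusted p = 0.000104). Krt15, another type I keratin found in basal cells, was called higher, at 7.87 and 8.25 against 45.1 and 49.8 CPM. Krt5, the basal partner of Krt14, did not follow the decrease. Krt5 had 2038 and 1370 CPM in Tspan8negMHCIIlo and 1432 and 1344 CPM in Tspan8posMHCIIlo, so the ranges overlapped, and its log2 fold change of -0.30 had an edgeR adjusted p of 0.185.

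Genes of enzymes that cross-link, trim and finally shed the cornified layer, and of inhibitors of such proteases, were called higher in part. Of the transglutaminases, which cross-link the envelope, 4 of 5 were called higher. Tgm1 stood at 41.9 and 19.1 against 207 and 155 CPM, and Tgm5 at 2.53 and 3.77 against 40.7 and 37.1 CPM. The kallikreins, serine proteases that cleave the adhesive contacts of corneocytes, were called higher in 10 of 25 tested genes and lower in none. Klk7 (ENSMUSG00000030713.6, chromosome 7 from 43811294 to 43816359) had 6.18 and 7.07 against 639 and 537 CPM, the largest log2 fold change among the 12 genes with the smallest p-values at 6.46 (standard error 0.22, edgeR adjusted p = 5.44e-08). All 4 tested Spink genes, which encode Kazal-type protease inhibitors, were called higher. Spink5, the inhibitor of epidermal kallikreins, had 19.4 and 36.3 against 1355 and 1574 CPM (5.70, edgeR adjusted p = 4.02e-07). In the serpin B clade, intracellular protease inhibitors, 7 of 16 genes were called higher. They included Serpinb2 with 30.6 and 28.5 against 916 and 721 CPM, and Serpinb11 with 1.4 and 5.42 against 197 and 222 CPM. As in every gene called higher, both Tspan8posMHCIIlo libraries exceeded both Tspan8negMHCIIlo libraries in each of the genes named here.

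Skin lipid barrier genes, which make and export the ceramides that seal the cornified layer, were called higher in 30 of 38 and lower in 1, with a median log2 fold change of 3.19 (2.83 with bounds). Abca12, the lipid transporter of lamellar granules, had 2.53 and 3.77 CPM in Tspan8negMHCIIlo and 116 and 105 CPM in Tspan8posMHCIIlo (5.09, standard error 0.33, edgeR adjusted p = 8.24e-07). The epidermal lipoxygenases Alox12b and Aloxe3, which act in sequence on ceramides, stood at 3.09 and 6.37 against 137 and 143 CPM and at 10.4 and 6.6 against 212 and 217 CPM. Elovl4, which elongates very long fatty acids, had 8.71 and 5.42 against 132 and 128 CPM. In the wider list of fatty acid synthesis genes 10 of 31 were called higher and 3 lower, with Acsl1 at 22.5 and 25.5 against 298 and 329 CPM and Fads1, a desaturase, at 20.2 and 23.6 against 3.3 and 2.05 CPM. Among cholesterol synthesis genes 4 of 27 were called higher, among them Msmo1, Ebp and Lss, and none lower. The higher share, 14.8%, was near the 12.1% of all genes, and the median log2 fold change was 0.18.

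Genes of cell contacts were higher in several families. Desmosome genes were called higher in 7 of 14 and lower in 1. Dsp, the plakin that anchors keratin to desmosomes, had 1147 and 730.4 against 3486 and 3467 CPM, and Jup, plakoglobin, 393 and 274 against 1529 and 1319 CPM. The desmosomal cadherin Dsc1 of upper layers had 1.12 and 1.89 against 55 and 47.6 CPM (5.03, edgeR adjusted p = 2.1e-06), while Dsg4, a desmoglein of hair, was called lower at 2.81 and 5.89 against 0 and 0.956 CPM, a call lost in 7 of the 8 fits with 1 library left out. Of 33 claudin and tight junction genes 16 were called higher and none lower. Cldn4 had 474 and 415 against 2594 and 1793 CPM (2.30, edgeR adjusted p = 5.42e-06). That count fell to 9 without replicate 2 of Tspan8negMHCIIlo. Of 14 adherens junction genes 6 were called higher, among them Nectin4 with 30.6 and 24.1 against 303 and 280.5 CPM. Cdh1, E-cadherin, had 945 and 564 against 1391 and 1178 CPM and missed the threshold (0.77, edgeR adjusted p = 0.0148), which it passed without replicate 1 of Tspan8negMHCIIlo (1.18). Ephrins and their Eph receptors, guidance molecules of epithelial layering, were called higher in 8 of 22, with Efna3 at 4.78 and 3.06 against 113 and 111 CPM. Ly6 and uPAR domain genes were called higher in 14 of 28 and lower in 3, with the small secreted or anchored proteins Lypd5 at 1.69 and 3.06 against 146 and 162 CPM and Slurp1 at 0.843 and 1.42 against 59.9 and 56.9 CPM.

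**Figure D2:**
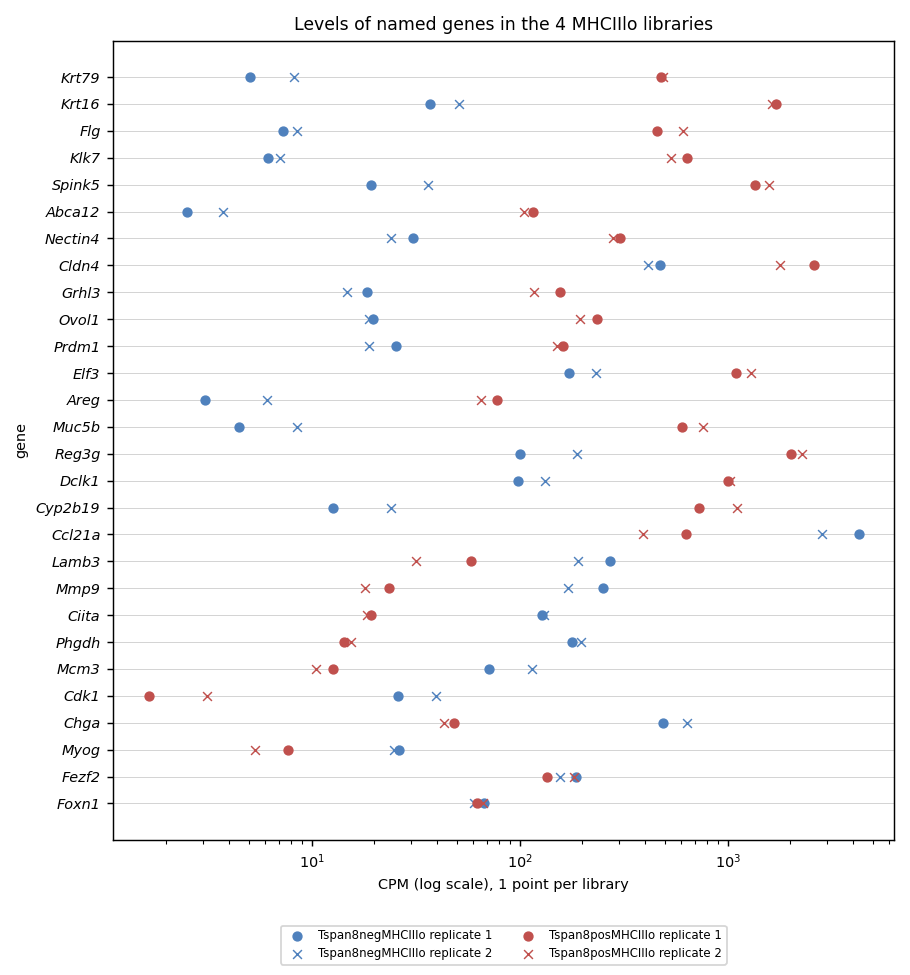
CPM on a log scale in the 4 MHCIIlo libraries, 1 point per library (circles replicate 1, crosses replicate 2; blue Tspan8negMHCIIlo, red Tspan8posMHCIIlo), for 28 genes of the groups described. From Krt79 to Cyp2b19 both red points lie to the right of the blue ones, from Ccl21a to Myog to the left, and for Fezf2 and Foxn1 the colours overlap.

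Transcription factors of terminal epithelial differentiation were called higher in 19 of 32 and lower in 3 (Id2, Id3 and Maf). Ovol1 (ENSMUSG00000024922.1, chromosome 19 from 5549136 to 5560646), a zinc finger factor of suprabasal cells, had 19.7 and 18.9 CPM in Tspan8negMHCIIlo and 236 and 196 CPM in Tspan8posMHCIIlo (3.48, standard error 0.19, edgeR adjusted p = 3.14e-07). Of the grainyhead-like factors of the epidermal barrier, Grhl1 rose from 41 and 29 to 241 and 241 CPM (2.79) and Grhl3 from 18.5 and 14.8 to 157 and 117 CPM (3.02), whereas Grhl2 had 68 and 51.6 against 73.7 and 77.1 CPM and was not called (0.34, edgeR adjusted p = 0.119). Prdm1, a repressor of terminally differentiating cells, stood at 25.6 and 18.9 against 161 and 151 CPM and Hopx at 8.99 and 14.4 against 94 and 84.9 CPM. Trp63, the p63 factor of basal epithelia, was not called, at 142 and 110.1 against 73.7 and 71.3 CPM (-0.80, edgeR adjusted p = 0.00261).

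Ets family genes were called in both directions, 6 of 24 higher and 5 lower. Higher were the epithelial members Elf3, Ehf, Elf5 and Spdef together with Spib and Etv3. Elf3 had 173 and 232 CPM in Tspan8negMHCIIlo and 1097 and 1294 CPM in Tspan8posMHCIIlo (2.56, standard error 0.17, edgeR adjusted p = 9.52e-07), and Ehf had 199 and 179 against 706 and 669 CPM (1.86, edgeR adjusted p = 1.96e-06). Elf5 stood at 0 and 1.18 against 9.34 and 14.7 CPM. Lower were Ets1, Fli1, Elk3, Etv5 and Erf, a count that fell to 2 without either Tspan8posMHCIIlo library. Ets1, which is abundant in lymphocytes and endothelium, had 177 and 256 against 63.2 and 63.9 CPM (-1.77, edgeR adjusted p = 2.98e-05). Of 14 Kruppel-like factor genes 3 were called higher and 1 lower (21.4% and 7.14%, against 12.1% and 9.34% of all tested genes). Klf4, a factor of barrier formation, rose from 525 and 412 to 1226 and 1379 CPM (1.48, edgeR adjusted p = 1.67e-05) and Klf5, a factor of proliferating gut and skin epithelium, from 84 and 54 to 182 and 144 CPM (1.23, edgeR adjusted p = 0.00126).

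Epithelial growth factor and IL-1 family ligands were among the genes that rose. Of 15 EGF receptor and ligand genes 9 were called higher, of which 7 encode ligands, and none lower. Areg, amphiregulin, had 3.09 and 6.13 against 78 and 65.5 CPM (3.91, edgeR adjusted p = 1.59e-06), and Ereg, epiregulin, at 0.281 and 0.707 against 24.7 and 18.7 CPM, was at least 28-fold higher. Among the receptors Erbb3 stood at 63.2 and 52.3 against 362 and 343 CPM, while Egfr itself had 140.4 and 69.1 against 115 and 112 CPM and was not called. IL-1 family genes were called higher in 9 of 20 and lower in 1. The epithelial IL-36 group was prominent, with Il1f6 (IL-36 alpha) at 1.12 and 1.18 against 54.4 and 55.8 CPM and Il1f5, the IL-36 receptor antagonist, at 1.4 and 7.31 against 165 and 202 CPM. Il1rn, the IL-1 receptor antagonist, had 56.2 and 41.5 against 397 and 338 CPM. In the Notch pathway 3 of 34 genes were called higher and 10 lower, the latter falling to 5 without replicate 2 of Tspan8posMHCIIlo. Nrarp, a feedback regulator of Notch, rose from 17.4 and 14.8 to 74.2 and 77.3 CPM, and Dll3, a divergent ligand, fell from 6.18 and 10.4 to 0 and 0.682 CPM. The receptor genes Notch1 and Notch3 were not called, with 278 and 356 against 172 and 184 CPM and 77 and 177 against 106 and 121 CPM. Of the gasdermin and regulated cell death genes 12 of 39 were called higher and 2 lower. Gsdma, the pore-forming gasdermin of skin, had 8.43 and 23.3 against 114 and 148 CPM, and Gsdmc, with 0 counts in both Tspan8negMHCIIlo libraries, had 8.79 and 13.9 CPM, at least 14.7-fold higher.

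Mimetic programs did not move as a block. Tuft, microfold, secretory, antimicrobial and enterohepatic genes were called higher in Tspan8posMHCIIlo more often than lower, and muscle, neuroendocrine and ciliated genes lower more often than higher. Fewer cells of a type and less RNA per cell cannot be told apart in such bulk libraries. Of 38 tuft genes 30 were called higher and none lower, with a median log2 fold change of 2.26 and a share of counts of 0.363% and 0.493% in Tspan8negMHCIIlo and 1.57% and 1.57% in Tspan8posMHCIIlo. Pou2f3, the tuft lineage factor, had 57 and 77.6 against 342 and 338 CPM (2.33, standard error 0.16, edgeR adjusted p = 1.1e-06). Microfold genes were called higher in 12 of 19. Pglyrp1, an antibacterial peptidoglycan recognition protein, had 36.2 and 51.4 against 382 and 334 CPM, and Ccl20, the chemokine of epithelium over lymphoid follicles, 16 and 60.1 against 169 and 193 CPM. Both tuft and microfold genes were already present in Tspan8negMHCIIlo, and no listed tuft gene had 0 counts there.

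Mucin, trefoil and airway secretory genes were called higher in 29 of 38 and lower in none, with a median log2 fold change of 3.65. Muc5b (ENSMUSG00000066108.7, chromosome 7 from 141839070 to 141873084), a gel-forming airway mucin, had 4.49 and 8.49 CPM in Tspan8negMHCIIlo and 604 and 763 CPM in Tspan8posMHCIIlo (6.69, standard error 0.29, edgeR adjusted p = 1.04e-07). Agr2, needed to fold mucins, had 0.562 and 1.42 against 61.6 and 71.3 CPM, and the club cell protein gene Scgb1a1 1.97 and 4.01 against 88.5 and 102 CPM. Spdef, the factor of goblet cells, stood at 0.281 and 3.77 against 33.5 and 35.8 CPM. Antimicrobial and acute phase genes were called higher in 26 of 43 and lower in none. Reg3g, an intestinal antibacterial lectin, had 101 and 188 against 2018 and 2279 CPM (3.89, edgeR adjusted p = 1.77e-06), Pglyrp4 2.25 and 2.36 against 98.4 and 94 CPM, and Lcn2, which binds bacterial siderophores, 15.2 and 22.4 against 98.4 and 91.3 CPM. Enterohepatic genes were called higher in 10 of 37 and lower in 1. The brush border protocadherin Cdhr2 had 18.8 and 34.7 against 286 and 290.3 CPM, while the regulator Hnf4a had 2.81 and 4.01 against 9.89 and 6.96 CPM and was not called. Ionocyte genes were called higher in 8 of 18 and lower in 2. Atp6v1c2, a proton pump subunit, had 2.25 and 5.42 against 90.7 and 124 CPM, and the ionocyte factor Foxi1 0.281 and 1.42 against 8.24 and 5.32 CPM. In Hnf4a, though not called, both Tspan8posMHCIIlo libraries lay above both Tspan8negMHCIIlo libraries, as they did in every gene called higher.

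Neuroendocrine genes were called lower in 11 of 40 and higher in 3, with a median log2 fold change of -1.07, and without replicate 2 of Tspan8posMHCIIlo 5 passed the threshold. Chga, chromogranin A of secretory granules, had 490.1 and 637 against 48.4 and 43.5 CPM (-3.63, standard error 0.28, edgeR adjusted p = 2.56e-06), and Isl1 44.9 and 42.7 against 15.4 and 16.9 CPM. Skeletal muscle genes were called lower in 19 of 39 and higher in 3, a count of decreases that fell to 10 without that library. Myog, the muscle differentiation factor, stood at 26.4 and 25 against 7.7 and 5.32 CPM (-2.06, edgeR adjusted p = 0.000815, and 0.0235 without the same library) and Ryr1, the calcium channel of muscle, at 32 and 29.7 against 1.65 and 3 CPM. Tnnt2, a cardiac troponin gene, went the other way, with 10.7 and 12.5 against 55 and 57.2 CPM (2.27, edgeR adjusted p = 1.75e-06). Ciliated genes were called lower in 9 of 36, but in 1 without replicate 2 of Tspan8posMHCIIlo, and higher in 1, Dnah5. The ciliogenesis factor Foxj1 was not called, at 75.8 and 62.5 against 92.9 and 111 CPM.

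Of the genes of other peripheral tissues, detoxification genes were called higher more often than lower. Cytochrome P450 genes were called higher in 18 of 53 and lower in 1. Cyp2b19, a P450 of keratinocytes, had 12.6 and 24.1 against 728 and 1110 CPM (5.63, standard error 0.32, edgeR adjusted p = 3.15e-07). Glutathione S-transferase genes were called higher in 7 of 24 and lower in none, with Gsta4 at 10.7 and 14.8 against 391 and 348 CPM and Gsto1 at 15.7 and 32.1 against 579.9 and 575 CPM. Retinoid metabolism and binding genes were called higher in 11 of 28 and lower in 2, with 6 higher without replicate 2 of Tspan8posMHCIIlo. Sdr16c6, a retinol dehydrogenase of skin, had 0 and 1.18 against 30.2 and 41.4 CPM. Milk, secretoglobin and urinary protein genes were called higher in 8 of 19 tested, 5 without the same library, and 25 of the 44 listed had too few counts to test. Scgb1b27 varied widely between Tspan8posMHCIIlo replicates, with 0 and 2.83 against 17.6 and 86.4 CPM.

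Classical autoantigen, pancreatic and germline genes showed no such excess. Of 28 tested autoantigen and hormone genes 3 were called higher and 3 lower, of 14 pancreatic enzyme genes 2 and 1, and of 19 germline and meiosis genes 2 and 1, shares near the 12.1% and 9.34% of all genes. Ins2, insulin, was at 1 count in each Tspan8negMHCIIlo library and 0.55 and 0.682 CPM in Tspan8posMHCIIlo, too few for a comparison. Gad1, a diabetes autoantigen, had 4.49 and 4.01 against 2.75 and 2.46 CPM and was not called. Mag, a myelin protein gene, rose from 9.27 and 12.5 to 80.8 and 63.1 CPM, Iapp, the islet peptide gene, from 14.3 and 21.7 to 85.2 and 101 CPM, and Crp, C-reactive protein, fell from 18.8 and 11.6 to 1.1 and 1.91 CPM. Of 12 tested genes that the study names as Fezf2-dependent antigens, 4 were called higher and 2 lower. Ckmt1, a mitochondrial creatine kinase gene, had 43.5 and 62.5 against 427 and 366 CPM, and Cd177, a neutrophil surface protein gene, 137 and 206 against 50.6 and 62.8 CPM. Fezf2 itself had 186 and 157 against 136 and 183 CPM and did not differ detectably (-0.09, edgeR adjusted p = 0.702).

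**Figure D3:**
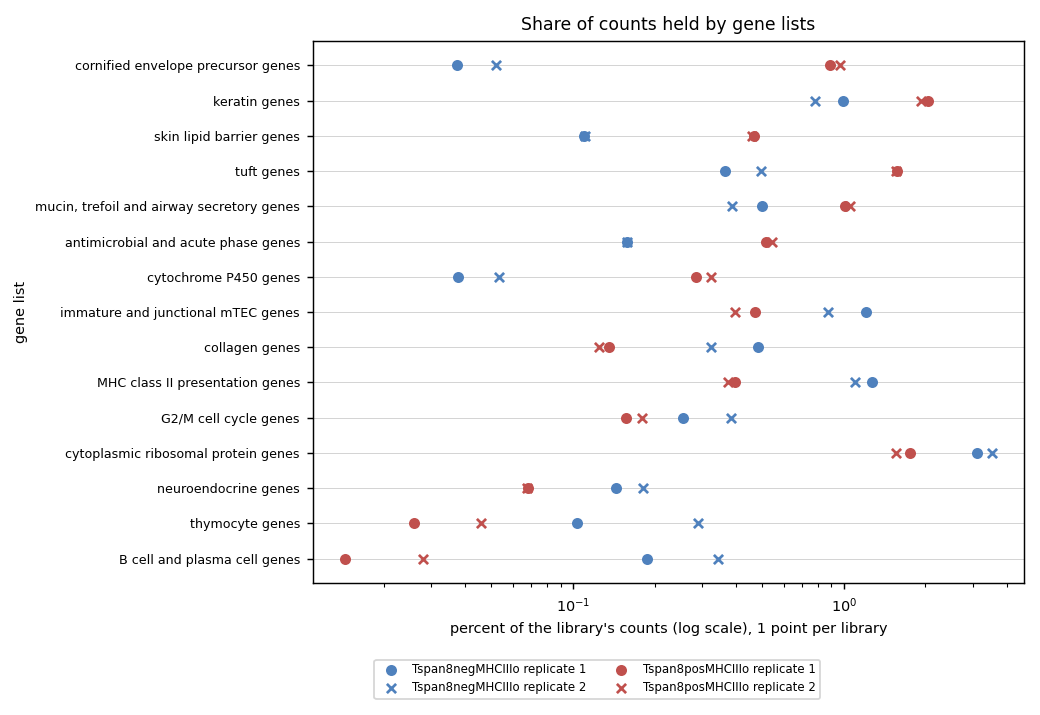
Percent of each library's counts, on a log scale, held by 15 gene lists, 1 point per library (circles replicate 1, crosses replicate 2; blue Tspan8negMHCIIlo, red Tspan8posMHCIIlo). In all 15 lists the red and blue points do not overlap; the red points are higher in the first 7 lists and lower in the other 8.

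The immature and junctional program pointed the other way, with 9 of 17 genes called lower in Tspan8posMHCIIlo and 2 higher, and a median log2 fold change of -1.45. Ccl21a (ENSMUSG00000094686.1, chromosome 4 from 42772860 to 42773993), the chemokine that draws thymocytes into the medulla, had 4276 and 2832 CPM in Tspan8negMHCIIlo and 628 and 393 CPM in Tspan8posMHCIIlo (-2.81, standard error 0.24, edgeR adjusted p = 4.88e-06). Apoe had 529 and 364 against 172 and 114 CPM and the insulin-like growth factor binding protein gene Igfbp5 992 and 859 against 541 and 507 CPM, the latter under the fold limit (-0.82, edgeR adjusted p = 0.000451). Krt15 and Plet1 were the genes called higher, with 7.87 and 8.25 against 45.1 and 49.8 CPM and 103 and 99.7 against 566 and 383 CPM. Of 16 thymic epithelial transcription factors 3 were called lower (Hey1, Sox4 and Isl1) and 1 higher, Irx2, at 3.93 and 2.12 against 40.1 and 50 CPM.

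Basal attachment and collagen genes were also called lower more often than higher. Among hemidesmosome, laminin and basal adhesion genes 9 of 22 were called lower and 1 higher, with 5 lower without replicate 2 of Tspan8posMHCIIlo. Lamb3, a chain of the laminin under stratified epithelia, had 271 and 192 against 58.3 and 31.8 CPM (-2.45, standard error 0.26, edgeR adjusted p = 2.6e-05), and Itgb4, the hemidesmosomal integrin chain, 657 and 521 against 230.3 and 202 CPM. Of 43 collagen genes 16 were called lower and 5 higher, with 1 higher without the same library. Col4a1, the basement membrane collagen, had 1117 and 567 against 192 and 126 CPM and Col6a1 859 and 493 against 138 and 102 CPM. Col2a1, the collagen of cartilage, had 43.8 and 37 against 1.1 and 2.73 CPM (-4.10, edgeR adjusted p = 2.08e-06). Matrix metalloproteinase and ADAMTS genes were called in both directions, lower in 8 of 36 and higher in 6. These shares were 22.2% and 16.7%, against 9.34% and 12.1% of all tested genes, and the count of decreases was smaller without that library. Mmp9, a gelatinase, fell from 251 and 170.5 to 23.6 and 18.2 CPM (-3.39, edgeR adjusted p = 8.63e-07), while Mmp7, matrilysin of glandular epithelia, rose from 4.78 and 8.25 to 73.7 and 81.6 CPM. Genes of fibroblasts and pericytes moved with this group, with 7 of 19 called lower, 1 higher, and shares of counts of 0.112% and 0.110% in Tspan8negMHCIIlo and 0.0276% and 0.0263% in Tspan8posMHCIIlo. The pericyte and smooth muscle genes Acta2 and Rgs5 had 214 and 132 against 29.7 and 17.2 CPM and 444 and 253 against 72 and 41 CPM. The fibroblast-defining genes Pdgfra and Col1a1 were low and not called, at 5.34 and 4.95 against 3.85 and 3 CPM and 12.1 and 43.9 against 15.9 and 23.5 CPM. Of 18 endothelial genes 1 was called lower and 1 higher, and their shares overlapped between the subsets. The part of other stromal cells in the matrix result was not tested.

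Genes of antigen presentation by MHC class II were lower in Tspan8posMHCIIlo, although both subsets came from the MHCIIlo gate. Of 17 genes 11 were called lower and none higher. Ciita (ENSMUSG00000022504.9, chromosome 16 from 10480059 to 10528418), the transactivator of class II genes, had 129 and 131 CPM in Tspan8negMHCIIlo and 19.2 and 18.6 CPM in Tspan8posMHCIIlo (-2.79, standard error 0.16, edgeR adjusted p = 3.32e-07). The peptide-loading gene H2-DMb2 had 187 and 143 against 23.6 and 21.6 CPM, H2-Aa 1376 and 1167 against 385 and 364 CPM, and Cd74, the invariant chain, 5597 and 4725 against 1974 and 1818 CPM. Of 22 class I and immunoproteasome genes edgeR called 0 in either direction, as did DESeq2, although at an unadjusted p under 0.05 edgeR had 9 with positive and 3 with negative changes, and without replicate 1 of Tspan8negMHCIIlo 1 was called higher and 1 lower. H2-K1 and H2-D1, the classical class I genes, had 3887 and 3175 against 5670 and 5643 CPM and 2835 and 2443 against 4565 and 4275 CPM, differences under the fold limit. Genes of B cells, which carry class II, moved the same way, with 12 of 22 B cell and plasma cell genes called lower, 2 higher, and shares of 0.187% and 0.343% against 0.0144% and 0.0279%. The immunoglobulin gene Ighg2b had 378 and 379 against 5.5 and 2.32 CPM, whereas Ms4a1 (CD20), a defining B cell gene, had 1.12 and 6.13 against 2.2 and 0.956 CPM and was not called. Of 20 dendritic cell and macrophage genes 4 were called higher and 2 lower, with Itgax (CD11c) at 9.27 and 25.7 against 0 and 0.819 CPM. The part of these cells in the class II result was not tested.

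Genes of Aire cofactors, costimulation, receptor signalling and chemokines were called in both directions. Of 20 genes of Aire, Fezf2 and their cofactors 3 were called lower, Aire, Top2a and Parp1, and 1 higher, Prdm1. The median log2 fold change of this list was -0.22, against -0.03 over all tested genes. Whether its counts depart from the 9.34% lower and 12.1% higher of all tested genes was not tested. Costimulatory and coinhibitory ligands were called lower in 5 of 19 and higher in 3. Cd40 had 36.8 and 42.2 against 13.2 and 10.2 CPM, Vcam1 317 and 182 against 74.8 and 61.7 CPM, and Vtcn1, an inhibitory ligand of the B7 family, 0 and 1.18 against 13.2 and 15.8 CPM. In the list of RANK, CD40, lymphotoxin receptor and NF-kB genes 4 of 30 were called higher and 1 lower, close to the background. Tnfrsf11a, the RANK receptor that drives mTEC maturation, had 88.5 and 63.4 against 63.8 and 66.8 CPM and was not called, while Tnfaip2, an NF-kB target, rose from 107 and 126 to 399.6 and 445 CPM. Chemokine genes exchanged members, with 10 of 30 called higher and 9 lower (6 and 4 without replicate 2 of Tspan8posMHCIIlo). Higher were neutrophil attractants such as Cxcl3, with 3.09 and 3.3 against 69.3 and 65.4 CPM, and Cxcl5, at 0 and 0.707 against 31.3 and 31.3 CPM, which was at least 40.4-fold higher. Lower were the lymphoid and interferon-responsive Ccl19, with 72.8 and 57.5 against 8.24 and 4.5 CPM, Cxcl12, with 62.1 and 58.9 against 11 and 10.5 CPM, and Cxcl10, with 1067 and 649.5 against 203 and 151 CPM. Interferon-stimulated genes were called lower in 13 of 55 and higher in 3, and lower in 5 without the same library. Gbp5, a guanylate-binding protein, had 135 and 77.3 against 22 and 18.7 CPM, while Isg15 had 109 and 82.3 against 119 and 104 CPM and was not called.

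Cell cycle genes were lower in Tspan8posMHCIIlo. Of 44 G1/S genes 27 were called lower and none higher, with a median log2 fold change of -1.64. Of 53 G2/M genes 42 were called lower and 2 higher, with a median of -2.37. Mcm3, a subunit of the replicative helicase, had 71.6 and 115 against 12.6 and 10.5 CPM (-3.06, standard error 0.27, edgeR adjusted p = 7.52e-06). Cdk1, the mitotic kinase, had 26.1 and 39.8 against 1.65 and 3.14 CPM (-3.57, standard error 0.31, edgeR adjusted p = 6.66e-06), and Ccnb1, its cyclin, 16.3 and 28.1 against 3.3 and 0.682 CPM. Ccnd2, the D-type cyclin of cycle entry, stood at 229.8 and 247 against 31.9 and 36.5 CPM. Transcripts of dividing cells were not absent from Tspan8posMHCIIlo, and replicate 2 of Tspan8negMHCIIlo was the higher of its pair in Mcm3, Cdk1, Ccnb1 and Ccnd2. The same replicate held more thymocyte transcripts. Thymocyte genes took 0.104% and 0.289% of counts in Tspan8negMHCIIlo and 0.026% and 0.0457% in Tspan8posMHCIIlo, and 12 of 21 were called lower and none higher. That count was 4 and 5 without replicate 1 or 2 of Tspan8posMHCIIlo and 21 without replicate 1 of Tspan8negMHCIIlo. Cd3g had 68 and 171 against 4.4 and 10.2 CPM and Ptprc (CD45), against which the sort was gated, 89.3 and 205 against 54.4 and 72.9 CPM, not called (-1.18, edgeR adjusted p = 0.023) but called without replicate 1 of Tspan8negMHCIIlo (-1.65). Without replicate 2 of Tspan8negMHCIIlo the numbers called lower were 21 of the G1/S and 33 of the G2/M genes. The remaining Tspan8negMHCIIlo library still held 0.104% thymocyte counts, so that fit does not separate thymocytes from mTECs. The part of thymocytes in the cell cycle result was not tested.

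Among metabolic genes, Phgdh and Psat1 of serine synthesis were lower in Tspan8posMHCIIlo. Serine, glycine and one-carbon genes, which supply nucleotide synthesis, were called lower in 10 of 26 and higher in 1. Phgdh (ENSMUSG00000053398.11, chromosome 3 from 98313170 to 98339990), the entry enzyme of serine synthesis, had 178 and 198 against 14.3 and 15.6 CPM (-3.63, standard error 0.18, edgeR adjusted p = 1.72e-07), and the next enzyme, Psat1, 45.5 and 44.1 against 8.79 and 10.8 CPM (-2.14, edgeR adjusted p = 1.14e-05). Psph, the last step, had 8.43 and 12.3 against 11.5 and 8.46 CPM and was not called. Cytoplasmic ribosomal protein genes had small changes of the same sign, with 78 of 79 negative and a median log2 fold change of -0.87, of which 16 passed the threshold, 10 without replicate 2 of Tspan8posMHCIIlo and 45 with library totals in place of TMM. Rps4x had 677 and 665 against 286 and 242 CPM. All 13 mitochondrially encoded genes were negative too, with 2 called, mt-Co1 at 7337 and 6931 against 2927 and 3299 CPM and mt-Atp8, or 6 without replicate 2 of Tspan8negMHCIIlo and 7 with library totals, whereas of 88 nuclear oxidative phosphorylation genes 1 was called higher, Ndufa4, and none lower. Glycolysis genes were called higher in 3 of 27 and lower in 2, shares (11.1% and 7.41%) near those of all genes. Ldhb, a lactate dehydrogenase subunit gene, had 96.6 and 123 against 413 and 427 CPM. Of 37 unfolded protein response and secretory genes 3 were called higher and 1 lower, shares at or under those of all genes.

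Whether the MHCIIlo difference departs from the one between the MHCIIhi subsets was tested as an interaction, called for 783 genes (4.6%). Of the 2052 genes called higher, 1223 were also called higher between the MHCIIhi subsets, and of the 1588 called lower 555 were also called lower there. A called interaction in the same direction was found for 298 and 178 of them, and in the opposite direction for 24 and 0. These genes were chosen on the MHCIIlo difference, which is part of the interaction, so an excess in the same direction is partly built in. The immature and junctional list held 11 of 17 genes with a called negative interaction and none with a positive one. Krt5 had 272 and 242 CPM in Tspan8negMHCIIhi and 1518 and 1460 CPM in Tspan8posMHCIIhi, a rise without a counterpart among MHCIIlo cells (interaction log2 value -2.83, standard error 0.24, edgeR adjusted p = 0.000183). Ccl21a had 226 and 217 CPM in Tspan8negMHCIIhi and 377 and 359 CPM in Tspan8posMHCIIhi, and its interaction value was -3.54 (edgeR adjusted p = 0.000234). Among MHCIIlo cells, in contrast, Ccl21a was lower in the Tspan8pos subset, so the directions were opposite. Of the 55 interferon-stimulated genes 12 had a called negative interaction. Within the late program the interaction was positive for kallikreins in 5 of 25, with Klk7 at 26.2 and 33.3 CPM in Tspan8negMHCIIhi and 276 and 231 CPM in Tspan8posMHCIIhi and an interaction value of 3.38 (standard error 0.27, edgeR adjusted p = 0.000175). Keratins had 8 positive and 4 negative calls of 44, and the G2/M list had none in either direction. With single libraries left out, the number of called interactions ranged from 189 to 1385, against 1511 to 2073 for genes called higher and 762 to 1706 for genes called lower.

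**Figure D4:**
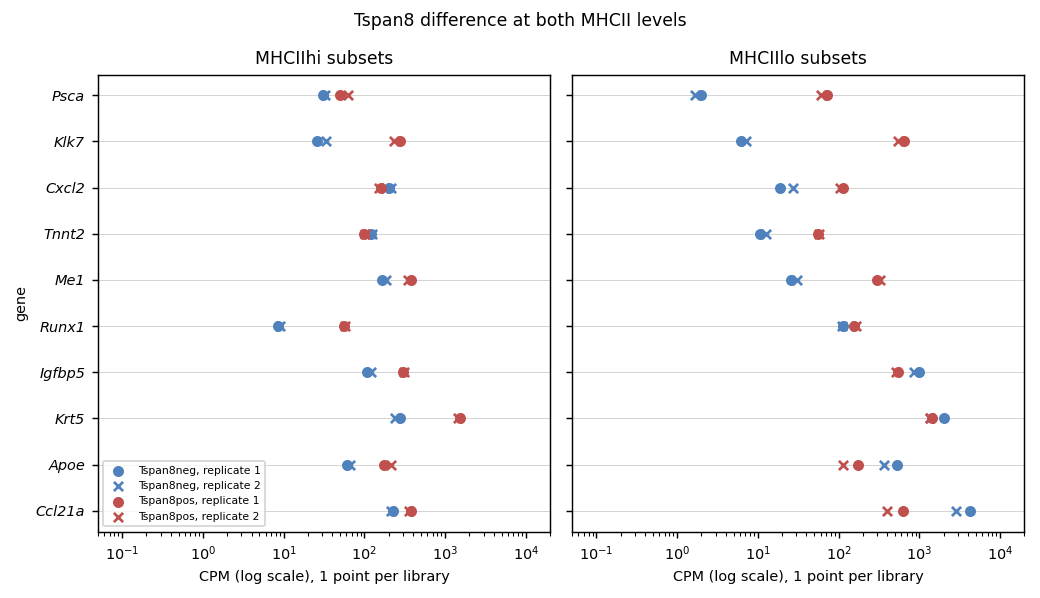
CPM on a log scale, 1 point per library, in the MHCIIhi (left) and MHCIIlo (right) subsets for the 10 list genes with the smallest interaction p-values (blue Tspan8neg, red Tspan8pos; circles replicate 1, crosses replicate 2). Igfbp5, Apoe and Ccl21a have the red points to the right of the blue ones on the left panel and to the left of them on the right panel; Krt5 has the wide gap in the left panel only.

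Lists of the thymic environment showed small and unstable counts. Of 46 niche cytokine and growth factor genes 8 were called higher and 7 lower, which became 2 and 3 without replicate 2 of Tspan8posMHCIIlo. Tslp, an epithelial alarmin of dendritic cells and tuft-associated immunity, had 1.4 and 0.236 against 3.85 and 7.24 CPM, and the growth factor gene Wnt10a, called lower, 24.4 and 20.5 against 1.1 and 3.55 CPM. Of the 29 tested tetraspanin genes other than Tspan8, on which the cells were sorted, 4 were called higher and 3 lower, close to all genes. Tspan15, which directs the protease Adam10, had 7.3 and 7.31 against 57.2 and 54.9 CPM, and the urothelial Upk1b 2.81 and 1.18 against 12.6 and 17.9 CPM. Cortical thymic epithelial genes were called lower in 6 of 14, or in 3 without either Tspan8posMHCIIlo library or replicate 2 of Tspan8negMHCIIlo, with shares of 0.170% and 0.162% against 0.0716% and 0.0780%. Their defining protease subunit gene Psmb11 had 6.46 and 18.9 against 2.2 and 5.32 CPM and was not called, except without replicate 1 of Tspan8negMHCIIlo (log2 fold change -2.11). Of 8 tested erythroid genes 1 was called higher and 1 lower, and of 3 tested hair keratin-associated protein genes 1 was called higher.

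Some values can include reads of neighbouring transcripts, because whether the counting used strand was not resolved. Genes with an annotated transcript on the opposite strand include Tspan8, Krt5, Krt8, Krt80, Tgm1, Dsp, Ovol1, Grhl2, Elf3, Hopx, Nrarp, Ereg, Slurp1, Acsl1, Ryr1, Itgb4, Col4a1, Ciita, Cxcl10, Ccnd2, Slc29a1, mt-Co1, Aire, Atp6v1c2, Ckmt1, Efna3, Elk3, Fosl1, Lss, Maf, Me1, Mmp7, Notch1, Notch3, Pdgfra, Plet1, Psph, Runx1, Sox4, Tnfaip2 and Vcam1. Sbsn, Serpinb2, Cd74, Parp1, Top2a, Pdgfra, Tspan15 and mt-Atp8 share exons with another annotated gene on the same strand. Several calls of single named genes were lost when 1 library was left out, which leaves 1 library in its subset. Without replicate 2 of Tspan8posMHCIIlo, with changes of the same sign, those of Ccl20, Elf5, Erf, Hey1, Itgax, Lce1a1, Lss, Maf, S100a9, S100a10, Scgb1b27, Tslp and mt-Atp8 were lost, at edgeR adjusted p-values from 0.0104 (Elf5) to 0.119 (Tslp). Without replicate 2 of Tspan8negMHCIIlo the log2 fold changes of Epcam and Klf5 came to 0.97 and 0.94, under the limit. Dsg4, Elk3, Etv5, Fli1, Foxi1 and Id3 lost their calls without any of several libraries, with Elk3 at -0.83 without replicate 1 of Tspan8negMHCIIlo and -0.79 without replicate 1 of Tspan8posMHCIIlo. Within the Sprr2, Lce, Klk1b, Ly6, Gsta and immunoglobulin families, reads can be split among near-identical copies, so values of single members are uncertain there.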

How the data were processed

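mRNA of 4 sorted mTEC subsets (2 libraries each) had been sequenced. Per the study's methods, amplified cDNA was tagmented and sequenced from 1 end, whereas the labels name a stranded kit. The authors processed the reads with Salmon 1.8.0 (GENCODE mouse annotation, mm10) and deposited expected counts per gene, not normalised. FastQC and DESeq2 1.30.0 also stand in the submitters' processing notes.

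Expected counts were rounded. Genes passing filterByExpr (17006) were fitted in all 8 libraries with edgeR 4.0.16 (R 4.3.3, limma 3.58.1), TMM scaling, a mean per subset and quasi-likelihood tests with Benjamini-Hochberg adjustment over all genes tested. A call needed an adjusted p under 0.01 together with a change of at least 1 on the log2 scale. The step was tested on simulated data. The biological coefficient of variation was 15.5%. Library totals ran from 1941518 to 7783841 counts. A floor of 3 counts per library stood in for 0, and floors cover counting error only. DESeq2 1.42.0, other scalings, filters, thinning and left-out libraries were alternatives.

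Gene positions are from GENCODE vM21 (GRCm38), promoters from RefSeq (GRCm38.p6). The 7 motifs searched on both strands were Ets (CNGGAAG), Klf (GGGNGTGG), AP-1 (TGANTCA), Grhl (AACCGGTT), E-box (CACGTG), NF-kB and p53-family, and only AP-1 is described. Promoter windows covered 77.9% of the tested coding genes and 75.2% of those called, under the 80% set as a minimum, so motif shares over all called genes are not reported. The lists and comparisons were chosen with earlier results of these data known. Named genes are the 12 smallest p-values per direction (at least 10 CPM, no overlap), per list the 4 largest called changes (at least 2 CPM) and the first 3 genes written, sort markers, and the 10 list genes with the smallest interaction p. A few further genes, Ccl19, Cd74, Col4a1, Col6a1, Dmkn, Dsp, Ehf, Elk3, Erf, Etv3, Etv5, Id2, Id3, Itgb4, Krt14, Krt18, Krt8, Maf, Plet1, Sprr1a, Tchhl1 and Trp63, were chosen after their values were seen. Some genes are not reported here.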

Additional observations from a re-analysis of the deposited data

Results flagged for a closer look

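The difference between Tspan8pos and Tspan8neg cells was compared between the MHCIIlo and MHCIIhi gates for each gene, and the 10 list genes with the smallest p-values of that interaction are given here, as log2 values of the MHCIIlo difference minus the MHCIIhi difference with edgeR adjusted p-values. The differences come from separate libraries, and Tspan8neg values stand before the word against and Tspan8pos values after it.

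The interaction was positive for 5 of these genes. Psca, a Ly6 family surface protein gene, had 1.97 and 1.65 against 70.9 and 60.3 CPM in the MHCIIlo subsets, 30.4 and 32.7 against 50.2 and 62.4 CPM in the corresponding MHCIIhi subsets, and an interaction of 4.32 (adjusted p = 0.000175). Klk7 had an interaction of 3.38 (adjusted p = 0.000175), with a rise at both MHCII levels. Cxcl2, a neutrophil chemokine gene, had 18.5 and 27.4 against 114 and 104 CPM in the MHCIIlo subsets, 205 and 215 against 159 and 153 CPM in the MHCIIhi subsets, and an interaction of 2.65 (adjusted p = 0.000234). For Tnnt2, at 121 and 124 against 99.4 and 103 CPM in the MHCIIhi subsets, it was 2.55 (adjusted p = 0.000175). Me1, the cytosolic malic enzyme gene, had 25.8 and 30.2 against 297 and 328 CPM in the MHCIIlo and 164 and 184 against 382 and 345 CPM in the MHCIIhi subsets, with an interaction of 2.42 (adjusted p = 0.000183).

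The other 5 genes had a negative interaction. Runx1, a transcription factor gene of blood and epithelia, had 113 and 109 against 157 and 164 CPM in the MHCIIlo and 8.53 and 8.97 against 55.4 and 57.3 CPM in the MHCIIhi subsets (-2.15, adjusted p = 0.000243). Igfbp5 had 107 and 119.7 against 305 and 314 CPM in the MHCIIhi subsets (-2.27, adjusted p = 0.000175), against a decrease among MHCIIlo cells. Krt5 had an interaction of -2.83 (adjusted p = 0.000183). Apoe had 60.9 and 66.4 against 176 and 213 CPM in the MHCIIhi subsets (-3.27, adjusted p = 0.000268), and Ccl21a an interaction of -3.54 (adjusted p = 0.000234). Groups of 2 libraries are too small for a test of single outlying samples.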

How the results depend on the processing

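The 2052 higher and 1588 lower genes stayed within 1.5 times in every setting but 1. Leaving out single libraries gave 1511 to 2073 higher and 762 to 1706 lower genes, with 762 without replicate 2 of Tspan8posMHCIIlo, the deepest library, and both minima there. DESeq2's Wald test gave 1901 and 1346, and library totals without TMM 1726 and 2043. The interaction count of 783 was less stable, with 1267 without a filter on low counts, 1754 at an adjusted p under 0.05 and 189 to 1385 with single libraries left out, the lowest without replicate 2 of Tspan8posMHCIIlo and the highest without replicate 2 of Tspan8negMHCIIlo. The cause was not tested.

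Deviations from the subset means correlated weakly between same-numbered libraries, at 0.00402 to 0.0924, all positive. Counting noise lowers such correlations, so they cannot decide whether same-numbered libraries share a source. The labels do not say so either. A replicate block in the fit gave 2095 genes higher, 1697 lower and 1236 in the interaction.

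Of 3125 values of named genes, 14 changed sign, all of genes without a call. With library totals the log2 fold change of Foxn1 was -0.14 and that of Egfr -0.034. Across left-out libraries Col1a1 ranged from -1.06 to 0.81, Foxn1 from -0.055 to 0.10, Egfr from -0.31 to 0.71, Fezf2 from -0.33 to 0.087, Ms4a1 from -2.22 to 0.23, Tnfrsf11a from -0.43 to 0.040, Psph from -0.37 to 0.18, Notch3 from -0.63 to 0.58 and Krt5 from -0.56 to 0.011. The ends of these ranges lie at the fits without 1 of the Tspan8negMHCIIlo libraries, except for Fezf2, whose ends lie at those without 1 of the Tspan8posMHCIIlo libraries. Depth limits genes such as the Lce family, where the smallest library's floor of 3 counts stands at 1.65 CPM.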
